A study of Homo sapiens with 36 samples.

Results

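These data compare what HCT116 cells had on heavy polysomes with what they had in the cytoplasm 14 days (D14) after exposure to 5-fluorouracil (5-FU) began. The rule took the 3 heavy pools and the 3 cytoplasmic RNA samples of D14, paired by the replicate letters A, B and C, which makes 6 of the 36 libraries, and it kept all 15891 listed genes. The other libraries are heavy pools and cytoplasmic RNA from D1, D2, D7 and D16 and from D0, collected before the drug, again with 3 letters each. All groups are HCT116 cultures, a line from a human colorectal carcinoma, and all later days were counted from the start of 10 µM 5-FU given for 48 h, so that D1 and D2 lay within the exposure. Whether each letter was a culture of its own is not in the labels, so p-values measure only the spread between these samples. No untreated culture of D14 was analysed here, so drug and time in culture cannot be told apart.

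5-FU is a pyrimidine analogue that blocks thymidylate synthase and is built into RNA, ribosomal RNA included, and into DNA. An mRNA that is being translated carries several ribosomes and sinks deep into a sucrose gradient, while free or lightly loaded mRNA stays near the top. Here the heavy pool holds RNA from fractions with more than 3 ribosomes per mRNA. Each library was scaled on its own, so the ratio of heavy pool to cytoplasm ranks a transcript relative to the other genes. It does not give the part of a transcript that sits there, and a shift shared by all genes would not show. That ratio is known to be low for untranslated RNAs, for mRNAs held back by a repressor, and for mRNAs too short to seat many ribosomes.

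Values are gene read counts that the authors divided by 1 size factor per library, called normalised counts. A difference is the heavy pool minus the cytoplasm of the same letter, on log2(normalised count + 1). Unless another day is named, rose and fell mean higher or lower in the heavy pool than in the cytoplasm, not a change over time. Differences were tested with limma over the 18 collections of all days, and a gene was called when its Benjamini-Hochberg adjusted p over all 15891 genes was under 0.05. The D14 libraries held 48.7 to 53.6 megareads in the heavy pools and 44.2 to 52.0 megareads in the cytoplasm. Of 14 colorectal epithelium markers, 10 were listed, and at D14 they summed to between 449650 and 504742 normalised counts in the heavy pools and between 385232 and 527516 in the cytoplasm. Of 22 markers of other lineages, 4 were listed and summed to between 722 and 1009 in the heavy pools and between 777 and 1112 in the cytoplasm.

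At D14 few genes differed between the heavy pool and the cytoplasm by more than the spread between letters. Of 15891 genes, 134 were called (0.843%), of which 2 were higher in the heavy pool (0.0126%) and 132 lower (0.831%). In the same fit the heavy pool and the cytoplasm differed for 10161 genes at D0 (63.9%), 9828 at D1 (61.8%), 5459 at D2 (34.4%), 7339 at D7 (46.2%) and 133 at D16 (0.837%). A call depends on how well the letters match, so the size of the difference was also described without a test. Within letters A, B and C the SD over genes was 0.50, 0.75 and 0.52 at D14 and 0.90, 0.80 and 0.78 at D0. Counts of genes past 2-fold in all 3 letters still depend on how well the letters match. Genes at least 2-fold higher in the heavy pool in all 3 letters numbered 2 at D14 (0.0126%), against 386 at D0 (2.43%), and genes at least 2-fold lower numbered 116 at D14 (0.73%), against 956 at D0 (6.02%). In these bulk libraries fewer cells of a type and less RNA per cell cannot be told apart. Letter B moved the count of calls most: without it 4083 genes were called (2080 higher and 2003 lower, 25.7%). Without letter A the count was 68 and without letter C it was 57. A fit without 1 letter has only 2 differences per gene at D14, and the spread given to that day was estimated from those 2.

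**Figure D1:**
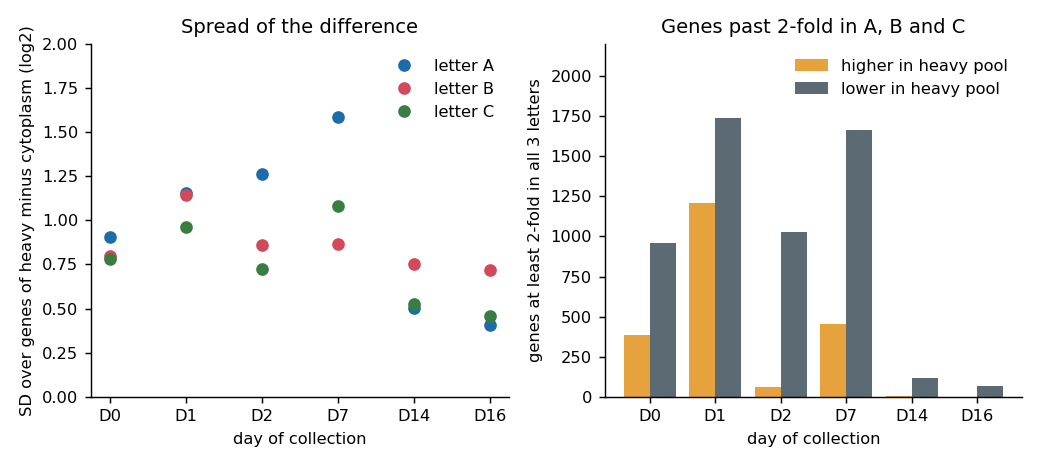
The left panel plots the SD over 15891 genes of heavy pool minus cytoplasm (log2) against the day of collection, with 1 point per letter. The right panel plots, as bars, how many genes were at least 2-fold higher or lower in the heavy pool in all 3 letters. At D14 the SD was 0.50, 0.75 and 0.52 in letters A, B and C, and the bars stand at 2 higher and 116 lower, far below those of D0 to D7.

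The sharpest loss from the heavy pool was that of RNA made inside mitochondria. The 13 mRNAs of the mitochondrial chromosome encode core subunits of the respiratory chain and ATP synthase, and they are translated by the ribosomes of that organelle, which are not part of cytosolic polysomes. All 13 were called lower at D14 (background 0.831%), with a median difference of -5.28 against 0.03 over all listed genes. All 18 listed genes of that chromosome were lower, and they took 0.181 to 0.312% of the reads in the heavy pools and 6.47 to 9.80% in the cytoplasm.

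MT-CO1, the catalytic subunit of cytochrome oxidase, had 16408, 26955 and 25580 normalised counts in heavy pools A, B and C, against 506549, 779408 and 749899 in cytoplasm A, B and C. No heavy pool came near any cytoplasmic library, and the difference was -4.89 ± 0.20 (SE, limma, adjusted p = 8.8e-12). MT-ND4L, a small membrane subunit of complex I, stood farthest apart, with 333, 659 and 622 in the heavy pools and 38424, 73350 and 76090 in the cytoplasm. Its difference was -6.86 ± 0.27 (limma, adjusted p = 8.8e-12), and both groups lay lowest in letter A. MT-ND6, the only mRNA of the 13 copied from the opposite DNA strand, had the smallest difference, -2.38 ± 0.34 (limma, adjusted p = 3.03e-04). Its heavy pools held 204, 326 and 378 normalised counts, against 1293, 1507 and 1830 in the cytoplasm, again without overlap.

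The mitochondrial gap was wider at D14 than before the drug. All 13 mRNAs had a lower D14 than D0 difference in limma (background 21.3% of genes lower), with a median change of -4.01. MT-ND4L changed by -5.52 ± 0.33 and MT-CO1 by -3.39 ± 0.24 (adjusted p = 1.85e-08 and 7.67e-08). The median difference of the 13 was -1.50 at D0, -1.85 at D1, -3.96 at D2, -4.76 at D7, -5.28 at D14 and -3.19 at D16. The heavy pools held 0.181 to 0.312% mitochondrial reads at D14, against 1.41 to 2.13% at D0, whereas the cytoplasm held 6.47 to 9.80% at D14 and 5.05 to 6.79% at D0. Mitochondria were pelleted during lysis, per the labels' protocols, and how much mitochondrial RNA leaked or was carried over was not tested. Another 12 listed genes are nuclear copies of mitochondrial genes, all called lower at D14 (background 0.831%), and reads from the organelle may have been counted to them. Among these, MTRNR2L12 had a difference of -5.52 ± 0.37 and MTRNR2L8 one of -5.13 ± 0.48.

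Ferritin mRNA was the next group. Ferritin, the iron store of the cell, is built of a light chain (FTL) and a heavy chain (FTH1), and the translation of both mRNAs is blocked by iron regulatory proteins that bind a hairpin in the 5′ UTR, the iron-responsive element. The loop of that hairpin begins with CAGTG, and RefSeq (GRCh38.p14) places these letters at bases 39 to 43 of the FTL transcript, in a stretch of its 5′ UTR at chr19:48965329-48965358, plus strand, bases 21 to 50 from the start. It is shown with CAGTG in capitals because FTL was the ferritin mRNA with the larger difference.
FTL: gtctgtctcttgcttcaaCAGTGtttggac
CAGTG on this strand was found in the 50 bases after the start for 8.09% of the 27305 symbols in the RefSeq table, so the letters alone do not mark an element.

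FTL had 22804, 24114 and 20910 normalised counts in heavy pools A, B and C, against 99823, 129157 and 106561 in cytoplasm A, B and C. The groups did not overlap, and the difference was -2.30 ± 0.17 (limma, adjusted p = 6.85e-08), 4.93-fold lower in the heavy pool. FTH1 had 111516, 117927 and 116369 in the heavy pools and 302716, 387428 and 359681 in the cytoplasm, a difference of -1.59 ± 0.18 (limma, adjusted p = 3.11e-05). All 3 letters gave both genes the same sign, between -2.42 and -2.13 for FTL and between -1.72 and -1.44 for FTH1. Of 17 listed ferritin genes and pseudogenes 16 were called lower (background 0.831%). But processed copies such as FTH1P10 share nearly all their sequence with the genes, so their values are not independent of them.

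Other mRNAs with an iron-responsive element had differences near 0. Where the element lies in them, apart from TFRC, was not examined here. TFRC, the transferrin receptor, whose elements lie in the 3′ UTR, had a difference of -0.05, SLC11A2, an iron transporter, 0.04 and EPAS1, the hypoxia factor HIF-2α, -0.13, and none passed the test. Of the 6 listed members of that group 2 fell (background 0.831%). The difference of FTH1 was less negative at D14 than at D0, by 0.68 ± 0.22 (limma, adjusted p = 0.0221), while that of FTL changed by 0.26 ± 0.21 (adjusted p = 0.345). FTL was lower in the heavy pool on every day, with mean differences of -2.56 at D0, -3.27 at D1, -3.13 at D2, -3.95 at D7 and -2.03 at D16.

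**Figure D2:**
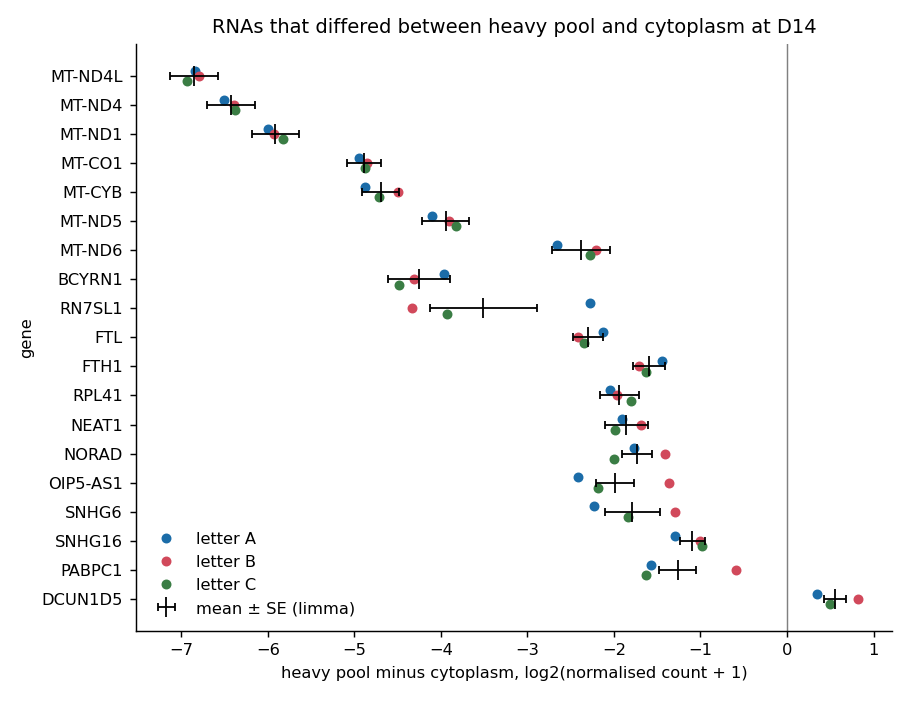
Each row is a called gene, and the horizontal axis is heavy pool minus cytoplasm at D14 on log2(normalised count + 1). Coloured points are letters A, B and C. Black bars are the mean of the 3 letters with the SE from the limma fit over all days, not the spread of these letters alone. The mitochondrial mRNAs lie between -6.86 and -2.38 with the letters close together, while letter B lies nearest to 0 among the called genes NORAD, OIP5-AS1, SNHG6 and PABPC1.

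Ribosomal protein mRNAs as a class had a median close to 0 at D14, unlike before the drug. These mRNAs belong to the TOP class, which begins with C followed by a run of C and T, and their translation rises and falls with mTOR signalling. Of 80 listed cytosolic ribosomal protein genes 0 rose and 1 fell at D14. Over all genes 0.0126% rose and 0.831% fell, so this count was close to the background. Their median was -0.10 against 0.03 over all listed genes. Without letter B 12 fell and 1 rose, where 12.6% of all genes fell and 13.1% rose. With the GC trend removed 4 fell and 0 rose, where 3.68% of all genes fell and 3.49% rose. Scaling each library to its total in place of the size factors turned that median to 0.06. The median was -1.04 at D0, and 49 of the 80 had a higher D14 than D0 difference in limma and 0 a lower one, where 15.3% of all genes were higher and 21.3% lower. On the other days the median was -1.82 (D1), -1.35 (D2), -2.10 (D7) and -0.34 (D16).

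The gene that fell was RPL41, which encodes the shortest ribosomal protein from a coding sequence of 75 bases. It had 18382, 25100 and 22261 normalised counts in heavy pools A, B and C, against 75722, 97963 and 77976 in cytoplasm A, B and C. These did not overlap, and the difference was -1.94 ± 0.23 (limma, adjusted p = 3.57e-05), 3.83-fold lower in the heavy pool, beside -1.59 at D0. The 3 named copies of RPL41 were called as well and may share its reads. RPL12, a protein of the ribosomal stalk base, shows the other pattern, with 138554, 153075 and 141087 in the heavy pools and 147295, 148748 and 135820 in the cytoplasm at D14, which overlapped. Its difference of 0.00 ± 0.26 at D14 stood against -2.21 at D0, a change of 2.22 ± 0.31 (limma, adjusted p = 1.27e-04). RPLP0, the stalk protein, had a difference of -0.37 ± 0.16 at D14 (adjusted p = 0.474) against -1.19 at D0, a change of 0.82 ± 0.19 (adjusted p = 0.00315). EEF1A1, the elongation factor that brings tRNA to the ribosome, had -0.32 ± 0.16 at D14 (adjusted p = 0.556). Without letter B EEF1A1 was called lower, at -0.34 ± 0.11 (adjusted p = 0.0268), but not with the GC trend removed (adjusted p = 0.118).

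The first 20 bases of these transcripts in RefSeq (GRCh38.p14) are printed to show that the gene that fell and those that did not share the same kind of start, with the leading run of C and T in capitals. They lie at chr12:56116633-56116652 (RPL41, plus strand), chr9:127451387-127451406 (RPL12, minus strand), chr12:120201092-120201111 (RPLP0, minus strand) and chr6:73521013-73521032 (EEF1A1, minus strand), all at the start of the 5′ UTR.
RPL41: CTCTCggccttagcgccatt
RPL12: CCTCTCggctttcggctcgg
RPLP0: CCTTCTCTCgccaggcgtcc
EEF1A1: CTTTTTCgcaacgggtttgc
A start with C in a run of at least 5 bases of C or T was annotated for 47 of the 64 listed ribosomal protein genes found in the table (73.4%), and for 5.14% of its 27305 symbols.

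Among 14 other TOP mRNAs 1 was called (background 0.843%), PABPC1, the poly(A)-binding protein. PABPC1 had 57618, 66521 and 59732 normalised counts in heavy pools A, B and C, against 171814, 100227 and 184524 in cytoplasm A, B and C. The difference was -1.26 ± 0.21 (limma, adjusted p = 0.00276), beside -1.42 at D0. All heavy pools lay below all cytoplasmic libraries, although letter B gave a smaller difference (-0.59) than letters A (-1.58) and C (-1.63), and without letter B it was -1.60. Without letter B 5 of the 14 fell and 0 rose (background 12.6% and 13.1%). With the GC trend removed 3 fell and 1 rose (background 3.68% and 3.49%).

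Long RNAs that encode no large protein made up the next group. The snoRNA host genes carry small nucleolar RNAs in their introns, and several of their spliced transcripts are known to sit on few ribosomes and to be degraded through nonsense-mediated decay. Of 16 listed hosts 0 rose and 4 fell (background 0.0126% and 0.831%), with a median of -0.52 at D14 and -1.23 at D0. At D14 the difference was -1.79 ± 0.32 for SNHG6 (limma, adjusted p = 0.00415) and -1.09 ± 0.15 for SNHG16 (1.68e-04). It was -1.05 ± 0.24 for EPB41L4A-AS1 (0.0394) and -0.97 ± 0.20 for SNHG29 (0.0167). At D0 these were -1.82, -0.84, -1.33 and -1.54 in that order, and none of their changes from D0 passed the test. GAS5, a host known as a starvation-induced RNA, missed the threshold at -1.01 ± 0.24 (adjusted p = 0.0608), but passed without letter B, at -1.16 ± 0.14 (adjusted p = 2.4e-05), and with the GC trend removed, at -1.09 ± 0.19 (adjusted p = 0.00206). Without letter B 9 of the 16 hosts fell and 1 rose (background 12.6% and 13.1%). With the GC trend removed 6 fell and 0 rose (background 3.68% and 3.49%). SNHG12, with a difference of 0.47 at D14 against -1.31 at D0, lay at the other end, and its change of 1.77 passed the test (limma, adjusted p = 6.04e-04).

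NEAT1, the scaffold RNA of nuclear paraspeckles, was the only called one of 7 listed nuclear-retained RNAs (background 0.843%). It had 289, 237 and 269 normalised counts in heavy pools A, B and C, against 1083, 767 and 1069 in cytoplasm A, B and C. Its difference was -1.86 ± 0.25 (limma, adjusted p = 1.70e-04), without overlap, beside -2.03 at D0. MALAT1, an RNA of nuclear speckles, had -1.15 ± 0.43 (adjusted p = 0.362), with -1.91, -0.24 and -1.30 in letters A, B and C. Without letter B it was called, at -1.61 ± 0.24 (adjusted p = 1.92e-04), and with the GC trend removed as well, at -1.25 ± 0.29 (adjusted p = 0.0148). Of the 7 RNAs all 7 were called lower without letter B (background 12.6%), with a median of -1.37. With the GC trend removed 5 were called lower (background 3.68%), and the median was -0.68 beside -0.69 in the values as deposited. Nuclei were pelleted before the gradient, per the labels' protocols, so both are what remained in the lysate.

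Further called noncoding RNAs were chosen after their values were seen. NORAD, a cytoplasmic RNA that binds Pumilio proteins, had 3332, 2681 and 3043 normalised counts in heavy pools A, B and C, against 11364, 7142 and 12204 in cytoplasm A, B and C. Its difference of -1.73 ± 0.17 (limma, adjusted p = 4.24e-06) was a change of -1.47 ± 0.21 from the -0.26 of D0 (adjusted p = 1.27e-04). OIP5-AS1 had -1.99 ± 0.22 at D14 and -1.01 at D0, a change of -0.98 ± 0.26 (adjusted p = 0.00751), but it lies antisense to another gene and whether reads were counted by strand is not stated. BCYRN1, the brain cytoplasmic RNA BC200, had 202, 242 and 135 in the heavy pools and 3168, 4811 and 3043 in the cytoplasm, a difference of -4.25 ± 0.35 (adjusted p = 2.59e-07). At D0 its difference was -3.91. RN7SL1, the RNA of the signal recognition particle, had -3.51 ± 0.62 (adjusted p = 0.00411), with letter A at -2.27 and letters B and C at -4.33 and -3.93. Of 5 listed 7SL genes 4 were lower and of 11 listed U6 genes 6 were lower (background 0.831%). Reads cannot be assigned with certainty among such copies. The libraries were made from poly(A) RNA, so RNAs without a poly(A) tail would be caught only in part.

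Outside these classes 37 of 12363 protein-coding genes were lower and 1 was higher (background 0.831% and 0.0126%). Those named here were also chosen after their values were seen. IDS, a lysosomal sulfatase, had a difference of -3.00 ± 0.29 (limma, adjusted p = 2.30e-06) and shares sequence with its pseudogene IDSP1, which had -2.95. SELENOW, a selenoprotein, had -1.25 ± 0.18 (5.35e-04), and IFNGR2, a chain of the interferon gamma receptor, -1.18 ± 0.15 (9.04e-05). SLC25A23, a mitochondrial carrier, had -1.29 ± 0.15 (3.90e-05), PRKDC, the catalytic subunit of DNA-dependent protein kinase, -1.08 ± 0.21 (0.0109) and MARCHF2, a membrane ubiquitin ligase, -1.58 ± 0.18 (3.01e-05). At D0 the differences were -1.58 for IDS, -1.85 for SELENOW, -1.66 for IFNGR2, -1.10 for SLC25A23, -0.95 for PRKDC and -1.45 for MARCHF2. Of 20 listed NPIP genes, near-identical copies on chromosome 16, 10 were lower (background 0.831%), and their reads may be shared. The 2 genes that rose, both close to the threshold, were DCUN1D5, a cofactor of cullin neddylation, and PTMAP2, a pseudogene. DCUN1D5 had 4665, 4427 and 4595 normalised counts in heavy pools A, B and C, against 3665, 2505 and 3250 in cytoplasm A, B and C, and rose by 0.56 ± 0.13 (adjusted p = 0.0483). PTMAP2 rose by 0.69 ± 0.16 (adjusted p = 0.0449), with reads that may stem from PTMA. Without letter A, without letter C, or among genes with a mean of at least 100, 0 genes were called higher. DCUN1D5 also passed without letter B and with the GC trend removed (limma, adjusted p = 7.8e-04 and 0.00168).

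Letter B carried a trend with base composition of the opposite sign to that of letters A and C, and a steeper one. Across 15782 genes, all measured in the same libraries, the correlation of GC content with the difference was -0.581 in letter B, 0.298 in letter A and 0.203 in letter C, given as a description. With genes in 5 bins of rising GC content, the median difference of letter B was 0.87, 0.33, -0.08, -0.32 and -0.39. In letter A the same medians were -0.26, -0.06, 0.08, 0.17 and 0.18, and in letter C they were -0.23, -0.06, 0.07, 0.12 and 0.09. The trend lay in the cytoplasmic library: cytoplasm B minus the mean of cytoplasm A and C had medians of -1.05, -0.43, 0.12, 0.44 and 0.54 over the bins, whereas heavy pool B minus the mean of heavy pools A and C stayed between -0.06 and 0.03. The letter B collection of D16 showed a like trend, with a correlation of -0.631 between GC content and its difference, and the D14 and D16 differences of letter B correlated at 0.817 across 15891 genes. In letters A, B and C the correlation with GC content was 0.034, 0.182 and 0.009 at D0 and -0.160, -0.370 and -0.451 at D1. It was -0.277, -0.348 and 0.069 at D2 and -0.057, -0.086 and -0.139 at D7. Whether library preparation or the cells gave the trend of letter B was not tested.

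Letter B shared little of its pattern over genes with the other letters. Across genes, the differences of letters A and B correlated at 0.045, those of B and C at 0.167 and those of A and C at 0.612, while at D0 the 3 values were 0.803, 0.760 and 0.754. With the GC trend of each collection removed they were 0.329 for A and B, 0.414 for B and C and 0.584 for A and C. The number of called genes became 1138 (7.16%), 554 higher and 584 lower. All 134 genes called with every library as deposited were among the 1138 and among the 4083 called without letter B. Both alternatives together called 946 genes in the same direction, 413 higher and 533 lower, and 0 in opposite directions. All of these fits share the D14 libraries of letters A and C, so their calls are not independent of each other.

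**Figure D3:**
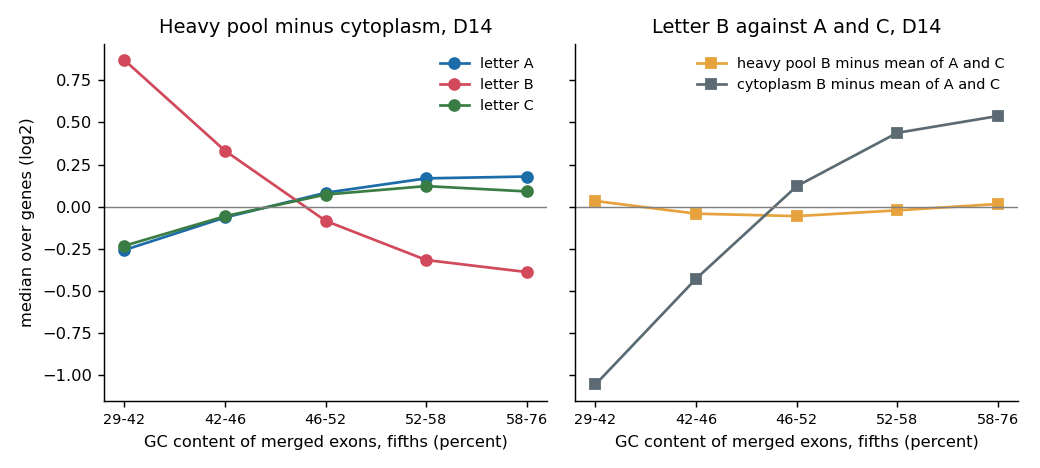
Both panels plot medians over genes (log2) in 5 bins of the GC content of merged exons at D14, with the range of each bin in percent on the horizontal axis. On the left are the differences of heavy pool and cytoplasm for letters A, B and C, where letter B falls to -0.39 in the bin of highest GC content while A and C stand at 0.18 and 0.09. On the right, heavy pool B follows heavy pools A and C, and cytoplasm B runs from -1.05 to 0.54 against cytoplasm A and C.

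Some functional groups had a median away from 0 in each letter although 0 of their members passed the test (background 0.843%). The proteasome, which degrades ubiquitin-tagged proteins, had medians of 0.29, 0.31 and 0.37 in letters A, B and C, and 20 of its 30 listed genes were positive in all 3 letters, against 18% of all genes (2854 of 15891). With the GC trend removed 11 of the 30 were called higher (background 3.49%) and without letter B 21 (background 13.1%), with 0 lower in both. PSMA3, a subunit of the core particle and the member with the largest difference, had 0.30, 1.29 and 0.47 in letters A, B and C and a mean of 0.69 (adjusted p = 0.314), and it passed without letter B (0.39, adjusted p = 0.0313) and with the GC trend removed (0.58, adjusted p = 0.0103). PSMA1, at the other end, had -0.01. The SR and hnRNP proteins, which bind and splice pre-mRNA, had medians of 0.19, 0.65 and 0.24, and 20 of 26 members were positive in all letters. With the GC trend removed 7 were called higher, and without letter B 10 were.

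The large chromatin regulators, long mRNAs for remodellers and histone-modifying enzymes, showed the opposite sign, with medians of -0.35, -0.60 and -0.45 in letters A, B and C. Of 30 listed genes 19 were negative in all letters, against 14.3% of all genes, and 11 were called lower with the GC trend removed (background 3.68%) and 13 without letter B (background 12.6%). EP300, a histone acetyltransferase, had -0.60, -0.80 and -0.74 in letters A, B and C (adjusted p = 0.364; 0.00551 without letter B and 0.0457 with the GC trend removed), and SMARCA2, a remodeller ATPase, had -0.01. At D0 the list had a median of 0.52, and 21 of its 30 genes had a lower D14 than D0 difference, with 0 higher (background 21.3% lower and 15.3% higher). At D16 its median was -0.21.

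Compared with D0, the D14 differences had changed for 5815 genes (36.6%), of which 2433 were higher (15.3%) and 3382 lower (21.3%). With each library scaled to its total the split was 3323 higher and 1960 lower. Without letter A 3863 genes were called, without letter C 2800 and without letter B 8360 (52.6%), and with the GC trend removed 8226 (51.8%). Several groups with a low D0 median, unlike the mitochondrially encoded mRNAs, had a higher one at D14. Nuclear OXPHOS subunits, the respiratory chain proteins made in the cytosol, had a median of 0.26 at D14 and -0.67 at D0, and 45 of 75 were higher and 8 lower. Among the subunits that changed most, ATP5F1E had 0.29 at D14 and -1.83 at D0, and ATP5F1B, the long catalytic subunit of ATP synthase, had 0.20 at D14 and 1.12 at D0. The S100 and metallothionein genes, small proteins that bind calcium or metals, had a median of 0.30 at D14 and -0.98 at D0, with 13 of 14 higher and 0 lower. S100A6 had 0.44 at D14 and -0.82 at D0, and MT2A had -0.02 at D14 and -1.24 at D0. At D16 the median was 0.11 for nuclear OXPHOS subunits and 0.26 for S100 and metallothionein genes.

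Among groups enriched on heavy polysomes at D0, 5 lists of growth and stress genes had medians between 0.06 and 0.18 at D14. DNA replication genes had a median of 0.18 at D14 and 0.77 at D0, and 22 of 35 were lower and 2 higher. MCM2, a helicase subunit, had -0.16 at D14, a change of -1.45, whereas RPA3, the small subunit of replication protein A, had 0.40 at D14 and -0.87 at D0. Mitosis genes had medians of 0.09 at D14 and 0.64 at D0, with 17 of 35 lower and 1 higher. The cytosolic aminoacyl-tRNA synthetases, which load tRNAs, had 0.08 at D14 and 0.78 at D0, with 13 of 20 lower and 0 higher, and glycolysis genes had 0.12 at D14 and 0.79 at D0, with 10 of 18 lower and 0 higher. Of 29 listed p53 targets 4 were higher and 10 lower, with medians of 0.06 at D14 and 0.48 at D0. Over all listed genes 15.3% were higher and 21.3% lower at D14 than at D0. The D16 medians were -0.08 for DNA replication, -0.11 for mitosis, -0.08 for the synthetases, -0.21 for glycolysis and 0.06 for p53 targets.

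**Figure D4:**
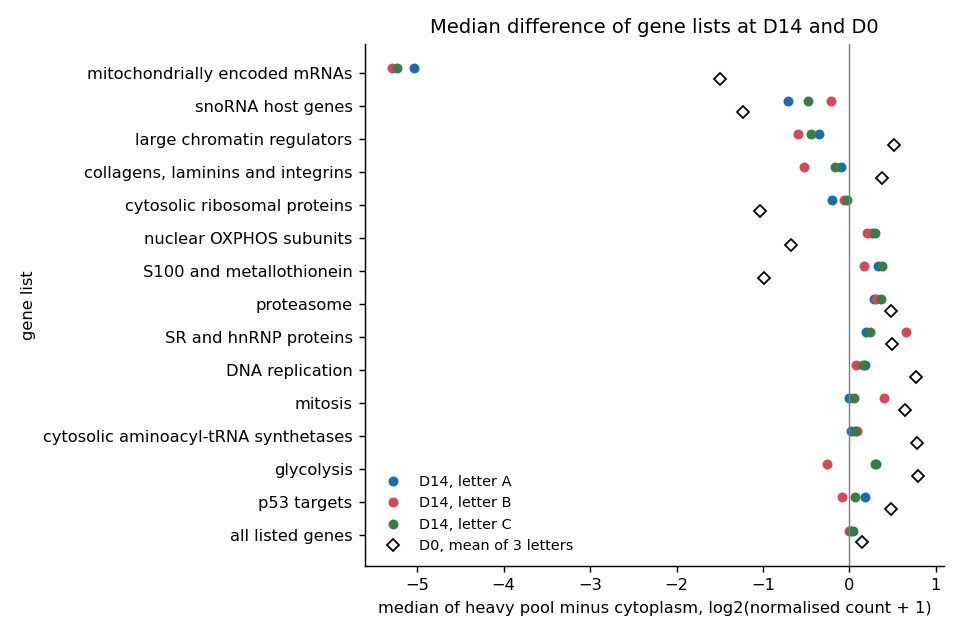
Each row is 1 of 14 chosen gene lists or all listed genes, and the horizontal axis is its median heavy pool minus cytoplasm difference on log2(normalised count + 1). Coloured points are the 3 letters at D14 and open diamonds the mean of 3 letters at D0. At D14 the plotted lists other than the mitochondrial mRNAs lie between -0.71 and 0.65 in every letter, while the D0 medians of the same lists run from -1.23 for snoRNA host genes to 0.79 for glycolysis.

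Genes tied to 5-FU and the p53 response had differences that did not pass the test at D14. Those of some genes passed with the GC trend removed or with letter B left out, which leaves only letters A and C at D14. TYMS, thymidylate synthase and the target of the drug, had 13004, 12506 and 13947 normalised counts in heavy pools A, B and C, against 9733, 10030 and 10709 in cytoplasm A, B and C. The groups did not overlap, but its difference of 0.37 ± 0.13 did not pass the test (limma, adjusted p = 0.307), and neither did its change from D0 (0.13 ± 0.15, adjusted p = 0.525). Its difference was 0.40 ± 0.08 without letter B (adjusted p = 0.00160) and 0.39 ± 0.09 with the GC trend removed (adjusted p = 0.0151), and both passed. CDKN1A, the p53-induced cell-cycle inhibitor, had 0.02 ± 0.18 (adjusted p = 0.991), with letters A, B and C at 0.24, -0.35 and 0.16. MDM2, the ubiquitin ligase that p53 induces, had -0.84, 0.40 and -0.77 in letters A, B and C, a mean of -0.40 ± 0.24 (adjusted p = 0.644). Without letter B MDM2 was called lower, at -0.80 ± 0.12 (adjusted p = 1.52e-04), and likewise with the GC trend removed, at -0.49 ± 0.13 (adjusted p = 0.0324). MYC, a growth regulator, had -0.02 ± 0.20 at D14 and 0.92 at D0, a change of -0.94 ± 0.24 (adjusted p = 0.00601). RRM2, the small subunit of ribonucleotide reductase, had 0.22 ± 0.12 at D14 and 0.87 at D0, a change of -0.65 ± 0.14 (adjusted p = 0.00188). Its D14 difference passed without letter B, at 0.24 ± 0.07 (adjusted p = 0.0184), but not with the GC trend removed (adjusted p = 0.173).

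The largest rises over D0 ran up to 2.72 ± 0.33, for IER3IP1, a small membrane protein of the secretory pathway. They belonged to mRNAs with a strongly negative D0 difference. Choosing genes by their change favours such mRNAs, since most D14 differences were small. POLR2J, a subunit of RNA polymerase II, had 3958, 4195 and 3918 normalised counts in heavy pools A, B and C at D14, against 3395, 4273 and 3312 in cytoplasm A, B and C. Its near-identical copies may share these reads. The groups overlapped, and its difference of 0.15 stood against -2.37 at D0, a change of 2.52 ± 0.26 (limma, adjusted p = 9.34e-06). PPDPF changed by 2.49 ± 0.28 (adjusted p = 1.96e-05), with -0.24 at D14 and -2.73 at D0. For SNX10, a sorting nexin, the change was 2.65 ± 0.53, with letter B far above the others: its difference was 2.05 at D14, while letters A and C had -0.31 and -0.39, both still above the -2.20 of D0. DYNLT3, a dynein light chain, had 2.10 in letter B and -0.55 and -0.32 in A and C, and ZCRB1, a protein of the minor spliceosome, had 1.52 in letter B and -0.33 and -0.30 in A and C.

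Coding length ordered the nuclear protein-coding genes in opposite ways at D14 and D0. In 5 bins from the shortest to the longest coding sequence (72 to 768 bases and 2544 to 43521 bases at the ends), the median difference at D14 was 0.17, 0.12, 0.07, 0.00 and -0.18. At D0 the medians of the same bins were -0.47, 0.11, 0.36, 0.49 and 0.60. All 3 letters of D14 had a higher median in the shortest bin than in the longest, 0.12 and -0.10 in letter A, 0.15 and -0.29 in letter B and 0.16 and -0.22 in letter C. With the GC trend removed the outer bins of D14 stood at 0.17 and -0.18.

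**Figure D5:**
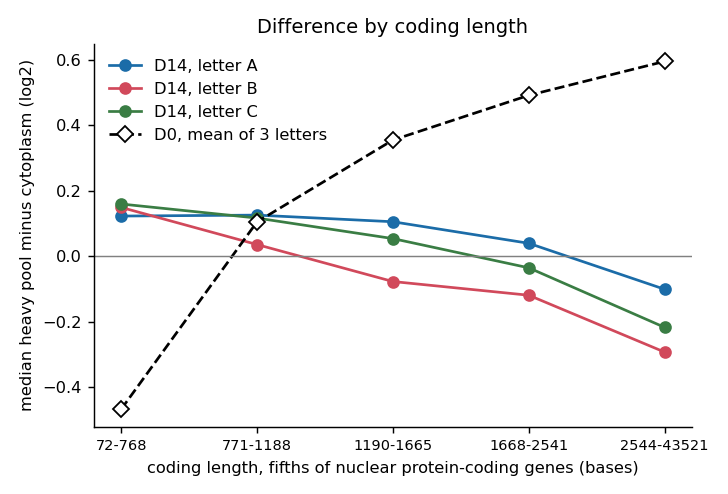
The median heavy pool minus cytoplasm difference (log2) is plotted against 5 bins of coding length in bases, for letters A, B and C at D14 and for the mean of 3 letters at D0. The D14 lines fall with length, to between -0.29 and -0.10 in the longest bin, and the D0 line climbs to 0.60.

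Against the mean of all other days, the D14 differences had changed for 4991 genes (31.4%), 2566 higher and 2425 lower. With each library scaled to its total the split was 2187 higher and 3644 lower, and the count was 2010 without letter A, 9019 without letter B and 588 without letter C. This comparison and the one with D0 share the D14 libraries and are not independent. RPL12 stood 2.38 above the other days (limma, adjusted p = 5.88e-05) and MT-ND4L stood at -3.84 (adjusted p = 2.11e-06). BOLA3, an assembly factor for iron-sulfur clusters, had 0.02 at D14, and -2.25, -2.76, -2.63, -3.71 and -0.12 at D0, D1, D2, D7 and D16. On D16 it was thus close to its D14 value, as RPL12 was with -0.33 and POLR2J with -0.18.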

How the data were processed

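Ribosomes were halted with emetine and the lysate was cleared of nuclei and mitochondria before the sucrose gradient, and poly(A) RNA was made into dUTP-marked libraries, per the labels' protocols. The tools, named in the submitters' processing notes, were STAR 2.7.9a (GRCh38), featureCounts (Subread 2.0.1), DESeq2 1.30.1, cutadapt 3.2 and FastQC 0.11.9. Strand setting and the handling of cells between D14 and D16 were not given. The authors deposited a signal: counts of reads per gene over the size factor of the library. Of 54 columns 18 match no sample and were not used here. Each value was a whole multiple of the value of 1 read (100% within 0.01), from which depth was summed. The smallest value was 1.00, so genes silent in any library were not analysed here.

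Within each of the 18 collections the cytoplasm was subtracted from the heavy pool on log2(value + 1). limma 3.58.1 in R 4.3.3 (lmFit, 1 variance factor per day from arrayWeights, eBayes with trend, two-sided) gave the D14 mean and the contrasts with D0 and with the mean of the other days. Benjamini-Hochberg adjustment covered all 15891 genes. The steps were tested on simulated data. Letters were paired because the labels give them as a batch. Heavy pool and cytoplasm of a collection deviated from their group means with a mean r of 0.00 over 18 pairs (5 over 0.1), and with -0.14, -0.14 and 0.13 in letters A, B and C of D14.

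Symbols matched 15856 identifiers. GENCODE 29 gave exons, GC content (15782 genes) and coding length (12390). The GC correction removed a trend with a span of 0.3. Lists of genes were described by counts and medians.

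Named genes were the 12 largest rises and 12 largest falls at D14 (called, protein-coding, 1 sign over the letters and a D14 mean of 100 or more in a fraction), at most 4 called genes per list, the 6 largest rises and falls in each contrast, and a fixed set. Members, lists and tests were chosen with earlier results of these data known. Alternatives changed the scaling, the pseudocount, the filter, the pairing, the variance factors, the GC correction and the letters used. A few of the genes so chosen are not reported here.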

Additional observations from a re-analysis of the deposited data

Results flagged for a closer look

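For 28 named genes the heavy pool minus cytoplasm difference at D14 differed from that at D0 in limma with an adjusted p under 0.05, and each value here is the D14 difference minus the D0 difference on the log2 scale. The mitochondrial mRNAs changed by -5.52 (MT-ND4L), -5.18 (MT-ATP8), -4.67 (MT-ND2), -4.55 (MT-ND3), -4.24 (MT-ND4), -4.19 (MT-CO2), -4.01 (MT-ND1), -3.54 (MT-ATP6), -3.39 (MT-CO1) and -2.84 (MT-CYB). Their nuclear relatives MTRNR2L12 and MTRNR2L8 changed by -2.30 and -1.67, and reads may be shared with the organelle.

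Genes whose difference was higher at D14 were IER3IP1 (2.72), SNX10 (2.65), ZCRB1 (2.52), POLR2J (2.52), PPDPF (2.49), DYNLT3 (2.47), PDCD5 (2.38), BOLA3 (2.28), RPL12 (2.22) and TMA7 (2.02). OAZ1, the antizyme that restrains polyamine synthesis, changed by 0.84, RPLP0 by 0.82, ODC1, the enzyme that antizyme inhibits, by 0.81 and FTH1 by 0.68. Genes whose difference was lower at D14 were MYC (-0.94) and RRM2 (-0.65).

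In letter B of D14 the differences of SNX10, DYNLT3, ZCRB1, IER3IP1 and PDCD5 were 2.05, 2.10, 1.52, 1.26 and 1.10. In letters A and C they lay between -0.55 and 0.55, and cytoplasm B was the lowest of the 3 cytoplasmic libraries for each of these genes.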

How the results depend on the processing

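The D14 count of 134 stayed within 1.5 times under normalisation by TMM factors (133), both other pseudocounts, both filters and equal variance for all days. It was 931 with each library scaled to its total (762 higher, 81.8%, against 1.49% higher with the deposited size factors), which moved the median of all genes by 0.16 and turned the sign of the median in 4 of 32 lists (ribosomal proteins, other TOP mRNAs, iron-responsive element mRNAs and ZNF genes). It was 1138 with the GC trend and 1123 with GC and length trends removed, 42 among protein-coding genes alone and 4365 without letter B of D14 and D16, both added after seeing the data. Leaving out 1 letter gave 57 to 4083. With 1 variance factor per collection, whose estimate did not converge, it was 7934, and ZCRB1 turned to -0.27.

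With no replicate block, thus without the pairing by letter, the count was 196, and within D14 alone it was 72 with the replicate block and 131 without it.

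The contrast with D0 (5815) ran from 2800 to 8360 on leaving out 1 letter and was 9845 with 1 variance factor per collection. The contrast with the other days (4991) ran from 588 to 9019 on leaving out 1 letter, and was 10916 with 1 variance factor per collection, 8334 with the GC trend removed and 9113 without letter B of D14 and D16. Over the named genes and alternatives, 799 values kept their side of the threshold, 37 passed it only in the alternative and 20 only as reported. The cause of each shift was not tested. Planned count models were not run. Each D14 library held at least 44.2 megareads, and 3 letters stand behind each value, except where a letter was left out.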

Other observations

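Of 10 listed genes of polyamine metabolism 0 were called at D14 (background 0.843%), with a median of 0.15 at D14 and -0.58 at D0. Of these, 5 had a higher D14 than D0 difference and 1 a lower one (15.3% higher and 21.3% lower over all genes). ODC1 had -0.10 ± 0.13 at D14 and -0.91 at D0, and OAZ1, whose translation needs a frameshift that polyamines promote, had 0.21 ± 0.19 at D14 and -0.63 at D0. Of 388 listed genes named ZNF with a digit, most of them zinc-finger repressors, 0 were called at D14 (background 0.843%) and the median was -0.02. The median of these 388 was -0.10, 0.23 and -0.18 in letters A, B and C, and 0.45 at D0.

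Genes of thymidylate and fluoropyrimidine metabolism had a median of 0.17 at D14 and 0.57 at D0 over 26 listed members, of which 4 had a higher and 12 a lower difference at D14 than at D0 (15.3% higher and 21.3% lower over all genes). MTHFD2, a mitochondrial folate enzyme, had the highest mean of these at 0.46 ± 0.12 (limma, adjusted p = 0.0870), with 0.39, 0.58 and 0.40 in letters A, B and C.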
